A study of Homo sapiens with 12 samples.

Results

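Human U937 cells that carried PR2VR, a form of the PML-RARA fusion, were compared with U937 cells that carried GFP alone. U937 is a monocytic line from a histiocytic lymphoma. The comparison used every PR2VR array and every GFP array of the series, 4 against 4, which is 8 of the 12 arrays. The remaining 4 arrays, of cells with the fusion PRWT, entered the estimate of the spread and 1 direct contrast. Per the labels, plasmids pEGFP, pEGFP-PRWT and pEGFP-PR2VR had been brought into the cells by electroporation, and GFP-positive cells were sorted 6 h or 9 h later. Every group therefore consists of electroporated, sorted, GFP-expressing U937 cells, and the expression is transient. Each construct was measured on 2 arrays at 6 h and 2 at 9 h, numbered 1 and 2 in the titles. PR2VR was taken as the protease-resistant fusion of the series title. Its labels call the cDNA wild type, and so do the labels of PRWT. The titles count hours after infection for both fusions and hours after transfection for GFP, so a difference in procedure cannot be told apart from the difference between fusion and GFP cells. The labels do not say whether arrays of a group came from separate transfections, so a p-value here reflects no more than the spread between these samples, which could be technical.

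PML-RARA is the product of the chromosome translocation of acute promyelocytic leukemia. It joins PML, which organises nuclear bodies, to the retinoic acid receptor alpha RARA, and it binds retinoic acid response elements with the receptor RXR and recruits corepressor complexes that hold histone deacetylases. Neutrophil elastase and related proteases of promyelocytes cut the fusion, and a form that resists cleavage stays whole. Monocytic cells answer danger signals through NF-kB and interferon signalling, with chemokines, interferons and enzymes such as IDO1 among the products.

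Values are MAS5 signals, a linear measure of the brightness of a set of probes, which the authors had scaled to 1 common level (trimmed mean of 1500.19 to 1500.25 on the 12 arrays). Per-array values below run in the order 6 h number 1, 6 h number 2, 9 h number 1, 9 h number 2. Differences are log2(signal + 62.5) of PR2VR minus GFP, given with the standard error (SE) of limma, n = 4 arrays per construct. Arrays of 1 time and number form a set, and PR2VR was compared with GFP within the 4 sets. A gene passed, and is said to have risen or fallen, where its Benjamini-Hochberg adjusted p over all 13959 genes tested was under 0.05. Of the 11 markers of U937 identity 9 had a probe set, and their summed signal ran from 35749.5 to 68613.7 on GFP arrays and from 45764.4 to 74354.6 on PR2VR arrays. The sum leans on PTPRC, the leukocyte surface phosphatase CD45, which read 16410.8 to 39446.1, so it does not by itself mark monocytic cells. LYZ read 3303.6 to 17506.9 and ITGB2 4818.8 to 20465.3. Dim members were TYROBP (299 to 1017), MPO (56.7 to 582.3) and SPI1, the myeloid factor PU.1, which read 17.2 to 416.9 over the 8 arrays. The mean of SPI1 was below the filter on signal, and it was not tested. Of other cell types, summed markers of T cells read 641.6 to 2462.3 in GFP and 895.4 to 2721.9 in PR2VR, those of epithelium and fibroblasts 2038.5 to 4783.3 and 1825.6 to 3281, those of erythroid cells and megakaryocytes 3643.4 to 10058.9 and 2568.5 to 6906.7, and those of B cells 3704.7 to 17772.9 and 5124 to 7002.2. The 3 arrays of 9 h number 2, 1 per construct, stood apart from the other 9 on the first principal component. Bacillus spike-in controls were bright on them (795.9 to 121536.3, against 4.9 to 297.9 elsewhere). On the second component the 3 arrays of 6 h number 2 (-41.1 to -36.8) lay at one end and number 1 of PR2VR at 6 h (65.2) at the other. The ratio of 3′ to 5′ actin signal, a measure of RNA quality, was 23.8, 18.9, 35.3 and 10.7 on the GFP arrays and 17.3, 56.9, 58.2 and 9.96 on the PR2VR arrays. It was higher in PR2VR in 2 of the 4 sets, and its part in the results was not tested.

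The transfected gene separated the groups. The brightest RARA probe set read 63.4, 48.2, 63.4 and 309 on the GFP arrays and 36892, 9281, 29626 and 41097 on the PR2VR arrays. Every PR2VR array lay far above every GFP array. This probe set rose by 7.32 ± 0.33 (adjusted p = 2.7e-06). Its GFP signals were no brighter than E. coli and phage controls that no human RNA matches (4.4 to 616, median 37.7), so the fold is imprecise. These are the bacterial controls meant below. On GFP arrays alone its mean was under the filter on signal, so it was picked for RARA and tested only through the fusion arrays. A second RARA probe set read 671, 624, 534 and 182 on GFP arrays and 5934, 4409, 3117 and 4798 on PR2VR arrays. A PML probe set read 168, 518, 397 and 409 on GFP arrays and 1601, 2867, 2054 and 9895 on PR2VR arrays. These 2 also passed when all probe sets were tested, at 3.12 ± 0.27 and 2.95 ± 0.34 (adjusted p = 0.00045 and 0.0054). The brightest PML probe set differed by 0.34 ± 0.21 (adjusted p = 0.586) and did not pass. Which PML and RARA sequences the plasmids hold is not stated in the labels used here.

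In PR2VR cells 41 of 13959 genes passed (0.294%), 21 higher (0.150%) and 20 lower (0.143%). The higher genes included regulators of transcription and chromatin, ARID5B, SOX4, KLF6, TCF7L2 and TBL1X, and regulators of kinase and insulin signalling, TRIB1, TRIB3, IRS2 and SGK1. The lower genes held the chemokine CCL4, interferon lambda 1, the interferon-stimulated gene ISG20, the enzymes IDO1 and IL4I1, the cytokine feedback genes SOCS1 and PIM1, and the cell cycle inhibitor CDKN1A. Each of the 41 differed in 1 direction in 4 of 4 sets, which their choice by a paired fit on these same differences largely fixes. For 13 of the 21 higher genes all PR2VR arrays lay above all GFP arrays, and for 10 of the 20 lower genes all lay below. Over all genes tested 206 (1.48%) lay wholly above and 162 (1.16%) wholly below. The call of 40 of these genes rests on the pairing, on the trend of variance on signal and on which arrays are fitted. With only the 8 PR2VR and GFP arrays, or with no variance trend, RARA alone passed. Without the pairing only RARA passed (0.00716%), with 551 genes at an unadjusted p under 0.05 where the paired fit had 1546 (11.1%). With any GFP array or any 9 h array left out RARA alone passed as well, whereas omitting a 6 h array of PRWT gave 23 (number 1) or 21 (number 2), and omitting one of PR2VR gave 416 (number 1) or 739 (number 2). The median size of the 41 differences stayed near 1.51 throughout, between 1.40 and 1.55 in these omissions.

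**Figure D1:**
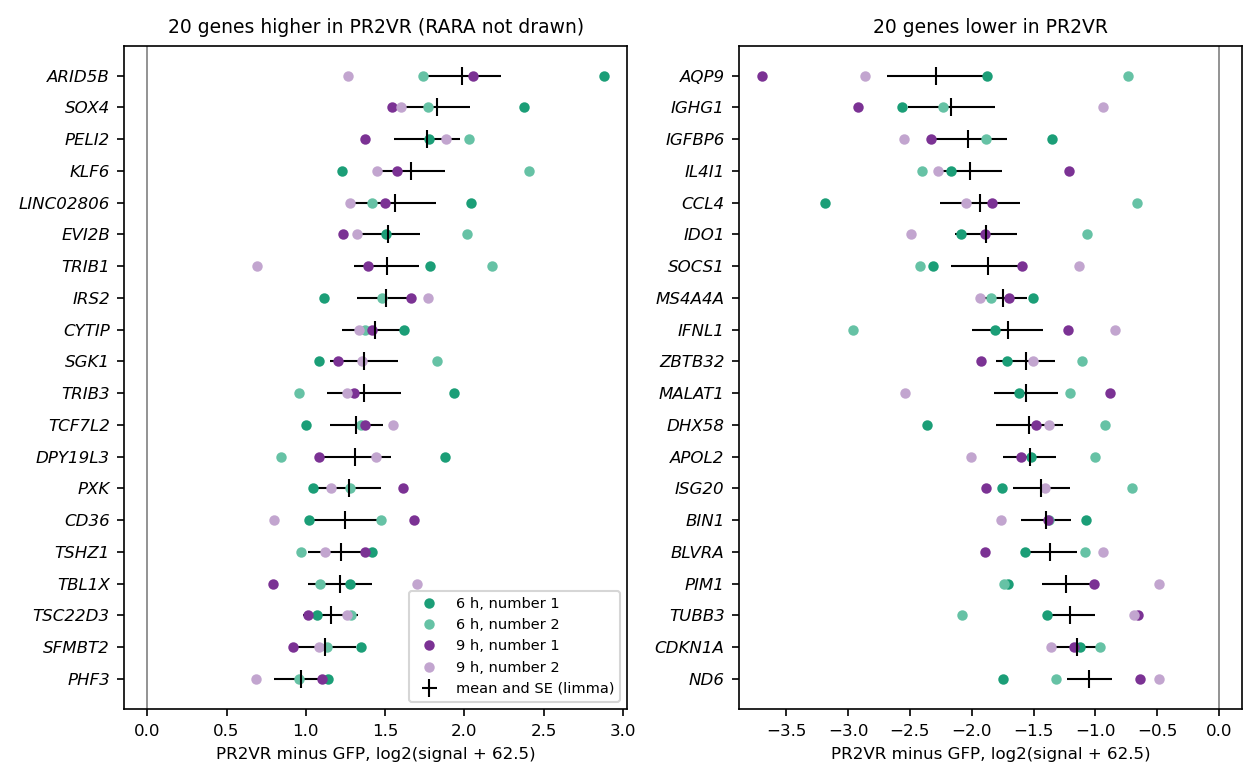
PR2VR minus GFP on the log2(signal + 62.5) scale (horizontal axis) for the 40 genes other than RARA that passed. Points are the 4 sets, and the black tick and bar are the mean and SE of limma. All points of the genes that rose lie above 0, from 0.68 (PHF3) to 2.88 (ARID5B), and all points of the genes that fell are negative, from -3.70 (AQP9) to -0.49 (ND6 and PIM1). The genes were picked on these same differences.

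Regulators of transcription and chromatin were among the genes that rose. ARID5B, a DNA-binding partner of the histone demethylase PHF2, read 798, 602, 1807 and 1813 on the GFP arrays and 6288, 2154, 7709 and 4445 on the PR2VR arrays. Its signal rose by 1.99 ± 0.24 (adjusted p = 0.0146), and the lowest PR2VR array lay above the highest GFP array. SOX4, a high-mobility-group factor of progenitor cells, read 2979.8, 1796, 3629 and 1413 on the GFP arrays and 15759, 6282, 10712 and 4415 on the PR2VR arrays. The groups did not overlap, and the increase was 1.82 ± 0.21 (adjusted p = 0.0146). KLF6, a zinc finger factor, read 19786, 5969.5, 7275 and 4079.5 on the GFP arrays and 46509, 31909, 21829 and 11233 on the PR2VR arrays, and it rose by 1.67 ± 0.21. Its groups overlapped, because number 1 of GFP at 6 h was brighter than number 2 of PR2VR at 9 h, while PR2VR was the brighter array within each set.

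TCF7L2, the nuclear partner of beta-catenin in Wnt signalling, read 13202, 8336, 9439.8 and 4903 on the GFP arrays and 26447, 21330.5, 24570 and 14490.5 on the PR2VR arrays. It rose by 1.32 ± 0.17 without overlap, and its 6 other probe sets differed in the same direction, by 0.55 to 1.05. TBL1X, a subunit of the corepressor complex that nuclear receptors recruit, read 6853, 5239, 5704 and 1585 on the GFP arrays and 16719, 11233, 9929 and 5290.5 on the PR2VR arrays. That is an increase of 1.22 ± 0.20 (adjusted p = 0.0417) with overlapping groups. The 5 other TBL1X probe sets differed less, by -0.13 to 0.62. TSHZ1, a zinc finger homeobox factor, rose by 1.22 ± 0.20 (signal 1939.8 to 4084 in GFP and 4288 to 10679 in PR2VR). SFMBT2, a Polycomb-group protein, rose by 1.12 ± 0.20 (1356 to 2734 in GFP and 2942 to 7066 in PR2VR), and its second probe set did not differ in that direction (-0.02). PHF3, a PHD finger protein that acts on RNA polymerase II elongation, had the smallest increase of the 21, 0.97 ± 0.17 (10599 to 11407 in GFP and 17086 to 24546 in PR2VR). Its 4 other probe sets differed by -0.38 to 0.37.

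The promoters of these genes were read to describe how often chosen motifs occur in them. RefSeq promoter windows, from 250 bases before to 50 after each annotated start (GRCh38.p14), were held for 17 of the 20 genes that rose other than RARA (38 windows), for 14 of the 20 that fell (17 windows) and for 11160 of all 13959 genes (16001 windows). Windows of 1 gene can overlap. In each, 6 motifs were searched on both strands. The nuclear receptor half-site AGGTCA was in 8 of 38 windows of genes that rose (21.05%, in 6 genes), in 0 of 17 of genes that fell and in 10.86% of all windows. With the first listed window of each gene alone these shares were 3 of 17 (17.65%) and 10.35%. The ATF4-type motif TGATGCAA was in 3 of 38 windows (7.895%), in 0 of 17 and in 0.6437% of all. A second half-site, GGTTCA, was in 3 of 38 (7.895%) against 7.337% of all windows, and the NF-kB-type motif GGACTTTCC was in 1 of 38, in CD36, against 0.45%. The other NF-kB-type motif, GGAATTTCC (0.425% of all windows), and the PU.1-type motif GAGGAAGT (2.787%) were in 0 windows of either group. These are counts of letters in a window, given as a description with no test. Below are the stretches around TGATGCAA, or its reverse complement, for the 3 genes that hold it, with the motif in capitals. The genes were chosen after the matches were seen.

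ARID5B: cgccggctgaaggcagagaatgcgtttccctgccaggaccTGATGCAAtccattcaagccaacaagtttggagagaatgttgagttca
TBL1X: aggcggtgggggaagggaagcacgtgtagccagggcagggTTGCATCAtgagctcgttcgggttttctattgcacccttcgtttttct
LINC02806: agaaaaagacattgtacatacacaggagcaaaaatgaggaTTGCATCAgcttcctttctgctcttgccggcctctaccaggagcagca

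They lie at chr10:61901603-61901690, chrX:9463207-9463294 and chr1:148279184-148279271, all on the plus strand, and the motif begins 56, 48 and 44 bases before the start. In TBL1X and LINC02806 it runs on the opposite strand. The half-site AGGTCA is shown in capitals for SOX4 (plus strand, chr6:21593539-21593624) and for CYTIP (minus strand, chr2:157444095-157444180), where it begins 172 and 51 bases before the start. The other holders were ARID5B, TBL1X, TCF7L2 and TRIB3, of which TRIB3 has it in 3 windows.

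SOX4: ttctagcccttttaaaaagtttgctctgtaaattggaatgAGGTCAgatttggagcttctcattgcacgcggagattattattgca
CYTIP: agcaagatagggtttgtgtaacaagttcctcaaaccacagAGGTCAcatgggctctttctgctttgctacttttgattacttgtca

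Single genes of signalling pathways were also among the 21, put side by side here after their calls were known. PELI2, an E3 ubiquitin ligase of Toll-like receptor signalling, read 2526, 1039.9, 1684 and 550.1 on the GFP arrays and 8794, 4442, 4456 and 2198 on the PR2VR arrays, a rise of 1.76 ± 0.21 with overlapping groups. TRIB1, a pseudokinase that steers the COP1 ubiquitin ligase to C/EBP proteins, read 7535, 2968, 3616 and 1698 on the GFP arrays and 26056, 13589.7, 9577 and 2783 on the PR2VR arrays. Its increase was 1.51 ± 0.20 (adjusted p = 0.0159), larger at 6 h (1.98) than at 9 h (1.04), with an unadjusted p of 0.0417 for the change with time and an adjusted p of 1.0. TRIB3, a relative that ATF4 induces, read 5823, 5670.2, 5644 and 3647 on the GFP arrays and 22426, 11072, 14018 and 8828 on the PR2VR arrays. Here the groups did not overlap and the increase was 1.36 ± 0.23, but the second TRIB3 probe set differed by -0.42.

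IRS2, an adaptor of insulin and cytokine receptors, read 9628, 7594, 9554 and 4342 on the GFP arrays and 20949, 21322, 30408 and 14979.9 on the PR2VR arrays. It rose by 1.51 ± 0.19 without overlap, and its other probe set differed by 1.12. SGK1, a kinase activated by PI3K signalling, rose by 1.37 ± 0.22 (signal 3514 to 15777 in GFP and 9098 to 33538 in PR2VR), and TSC22D3, the glucocorticoid-induced leucine zipper protein, by 1.16 ± 0.17 (4199.7 to 14478 in GFP and 10136 to 31587 in PR2VR). For SGK1 number 1 of GFP at 6 h was brighter than both PR2VR arrays of 9 h, and for TSC22D3 both GFP arrays of 6 h were, so the groups overlapped.

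Surface proteins and other genes complete the list of 21. CD36, a scavenger receptor for lipids on monocytes, read 3522, 4733, 7661 and 13629 on the GFP arrays and 7218, 13254, 24706 and 23776 on the PR2VR arrays, a rise of 1.24 ± 0.21. Its 4 other probe sets differed in the same direction, by 0.83 to 1.89. EVI2B, a transmembrane protein of granulocytic cells, rose by 1.52 ± 0.20 (963 to 2336 in GFP and 4091 to 5579.7 in PR2VR), and CYTIP, which regulates leukocyte adhesion through cytohesin, by 1.44 ± 0.21 (921 to 2645 in GFP and 2482 to 7184 in PR2VR). PXK, a phox-domain protein of endosomes, rose by 1.27 ± 0.20 (2994 to 5357 in GFP and 6765 to 12189 in PR2VR). DPY19L3, which attaches mannose to tryptophan residues of proteins, rose by 1.31 ± 0.23 (1864 to 4254 in GFP and 5165 to 15832 in PR2VR). The long noncoding RNA gene LINC02806 rose by 1.56 ± 0.26 from low signals (216 to 400.5 in GFP and 681 to 1776 in PR2VR). All 4 of its GFP signals were within the range of the bacterial controls, though above their median, so this fold is imprecise too.

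**Figure D2:**
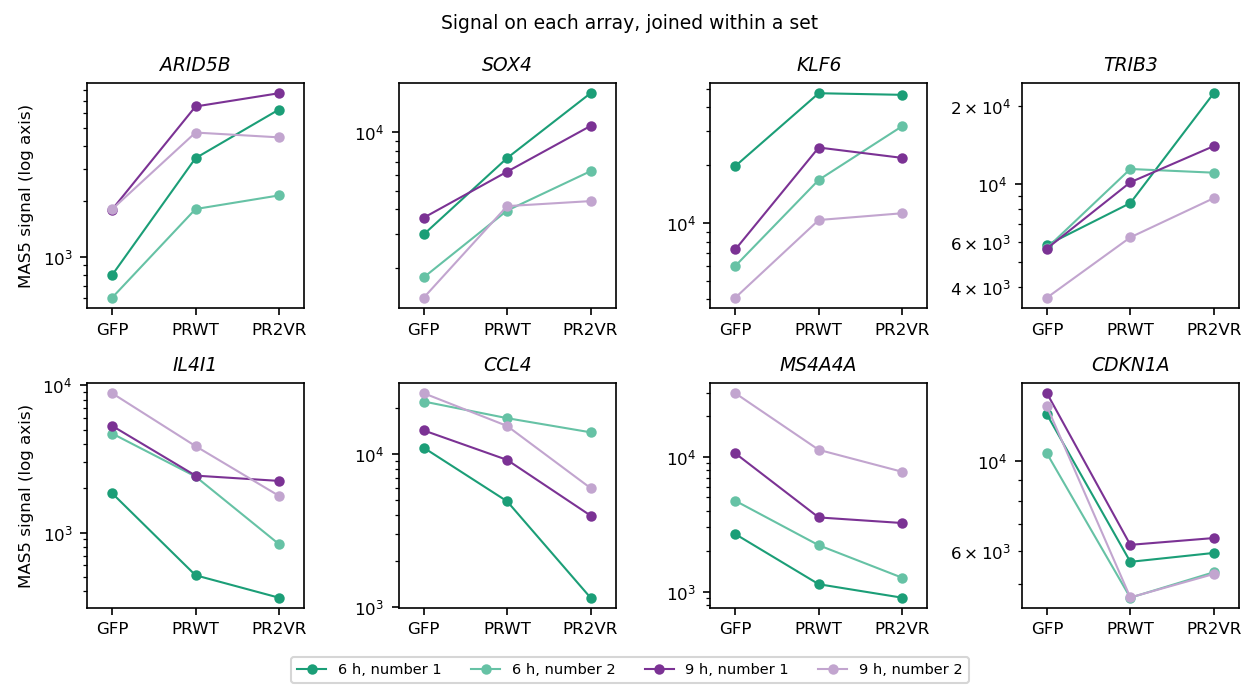
MAS5 signal (vertical axis, log scale) of 8 genes on each array, by construct, with lines joining the arrays of 1 set. Signals of ARID5B, SOX4, KLF6 and TRIB3 are higher in PR2VR than in GFP in each of the 4 sets, and those of IL4I1, CCL4, MS4A4A and CDKN1A are lower. The CDKN1A signals on PR2VR arrays, 5279 to 6470, lie below the GFP arrays, 10439 to 14678.

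Among the genes that fell were secreted messengers of inflammation. CCL4, a chemokine that attracts monocytes and T cells, read 10969.7, 21998, 14235 and 24921 on the GFP arrays and 1147, 13835, 3949 and 5976 on the PR2VR arrays. It fell by 1.93 ± 0.33 (adjusted p = 0.043), and the within-set differences of -3.19, -0.67, -1.83 and -2.05 were uneven, with the largest in the set that holds the PR2VR array standing apart. IFNL1, interferon lambda 1, read 2834, 19089.8, 7960.4 and 6889 on the GFP arrays and 762, 2393, 3372 and 3811 on the PR2VR arrays, and it fell by 1.71 ± 0.28. The GFP arrays of 6 h differed widely from each other, and the groups overlapped. CCL4 and IFNL1 have close relatives whose transcripts a probe set may not separate.

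ISG20, DHX58 and APOL2 were also among the genes that fell. ISG20, an interferon-stimulated exonuclease for single-stranded RNA, read 11638, 18993, 26282 and 33146 on the GFP arrays and 3411, 11633, 7079 and 12459 on the PR2VR arrays. It fell by 1.44 ± 0.23, and its other probe set differed by -1.61. DHX58, the RNA sensor LGP2, read 605, 2138, 3045 and 4333 on the GFP arrays and 67.2, 1099.8, 1052 and 1629.8 on the PR2VR arrays. The difference was -1.54 ± 0.27, and its adjusted p of 0.0494 was the closest to the threshold among the 41. Within sets it was -2.36, -0.92, -1.48 and -1.38. The largest came from number 1 of PR2VR at 6 h, the array that stood apart. Its signal of 67.2 was within the range of the bacterial controls, so this fold is imprecise. APOL2, an apolipoprotein L of the cytoplasm, read 2175, 3292, 5364 and 3661 on the GFP arrays and 717, 1608, 1729 and 863 on the PR2VR arrays, and it fell by 1.53 ± 0.21 without overlap. The second APOL2 probe set differed by 0.59, in the opposite direction.

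SOCS1 and PIM1 were the 2 of 11 SOCS and PIM cytokine feedback genes that passed. SOCS1, an inhibitor of JAK kinases, read 4894, 8415, 3989 and 3765 on the GFP arrays and 934, 1519, 1278 and 1679.5 on the PR2VR arrays. The GFP and PR2VR ranges did not meet, and the difference was -1.87 ± 0.30 (adjusted p = 0.0402). Of its 3 other probe sets 1 differed in the same direction. PIM1, a survival kinase that STAT factors induce, read 9995, 9309.8, 5918 and 3979 on the GFP arrays and 3016, 2748, 2896 and 2824 on the PR2VR arrays, a difference of -1.24 ± 0.20. It was -1.72 at 6 h and -0.75 at 9 h.

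The enzymes IDO1, IL4I1 and BLVRA were among the lower genes. IDO1, the first enzyme of tryptophan breakdown, read 1126, 1799, 3195 and 5269 on the GFP arrays and 217, 823, 816 and 884 on the PR2VR arrays. The difference was -1.89 ± 0.25 (adjusted p = 0.0159) without overlap. IL4I1, a secreted oxidase of aromatic amino acids, read 1854, 4710.3, 5310 and 8838 on the GFP arrays and 363, 838, 2247 and 1780.1 on the PR2VR arrays, and it fell by 2.02 ± 0.26 (adjusted p = 0.0146). The within-set differences were -2.17, -2.41, -1.22 and -2.27. On number 1 of PR2VR at 6 h the signals of IDO1 (217) and IL4I1 (363) were within the range of the bacterial controls. These folds are imprecise. BLVRA, biliverdin reductase, fell by 1.37 ± 0.22 (20055 to 43194 in GFP and 6729.5 to 13262 in PR2VR).

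Of 17 tested monocyte and macrophage genes 3 passed, 2 lower and 1 higher. MS4A4A, a tetraspan protein of macrophages, read 2672, 4724, 10641 and 29777 on the GFP arrays and 899.7, 1267, 3229.7 and 7764 on the PR2VR arrays. The difference of -1.75 ± 0.20 (adjusted p = 0.0146) was even across sets, at -1.51, -1.85, -1.70 and -1.93, and both other probe sets differed in that direction. AQP9, a channel for water and glycerol, read 876, 359, 1035 and 2045 on the GFP arrays and 193, 190.3, 22.2 and 228 on the PR2VR arrays, and it fell by 2.29 ± 0.39, the largest decrease of the 20. All AQP9 signals on PR2VR arrays were at most 228, within the range of the bacterial controls, so the size of this fold is imprecise. CD36, described above, rose.

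BIN1, a membrane-bending protein, read 8094, 11583, 17247 and 17450.2 on the GFP arrays and 3807, 4426, 6567 and 5103 on the PR2VR arrays. It fell by 1.40 ± 0.20, and its 4 other probe sets differed by -1.61 to -1.35. CDKN1A, the p53-induced inhibitor of cyclin-dependent kinases known as p21, read 13015, 10439, 14678 and 13617 on the GFP arrays and 5947, 5332, 6470 and 5279 on the PR2VR arrays. The groups did not overlap, the difference was -1.15 ± 0.18, and the within-set differences were -1.12, -0.96, -1.17 and -1.36. IGFBP6, which binds insulin-like growth factor II, fell by 2.03 ± 0.31 (675 to 4424 in GFP and 227 to 706 in PR2VR), and ZBTB32, a BTB zinc finger repressor, by 1.56 ± 0.24 (925 to 10453 in GFP and 239 to 3633 in PR2VR). On 3 of 4 PR2VR arrays for IGFBP6, and on 2 of 4 for ZBTB32, the signal was within the range of the bacterial controls. These folds are imprecise.

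The remaining 4 genes carry reservations about what the probe set measured. IGHG1, an immunoglobulin heavy chain gene, fell by 2.16 ± 0.35 (1741 to 3445 in GFP and 321 to 1765 in PR2VR), but immunoglobulin genes are near-identical and its 4 other probe sets differed by -0.19 to 0.18. On 3 of 4 PR2VR arrays its signal was within the range of the bacterial controls. The summed B cell markers given above came mostly from PAX5, and their part in the IGHG1 result was not tested. MALAT1, a nuclear long noncoding RNA, fell by 1.56 ± 0.26 (28652 to 46942 in GFP and 5778 to 19383 in PR2VR), and 8 of its 11 other probe sets differed in the same direction. TUBB3, a beta-tubulin with close relatives, fell by 1.20 ± 0.20 (7298 to 14098 in GFP and 3281 to 8702 in PR2VR). ND6, a mitochondrially encoded subunit of complex I, fell by 1.05 ± 0.18 (7577 to 16556 in GFP and 4887 to 7427 in PR2VR). Its difference was -1.54 at 6 h and -0.56 at 9 h. The reported probe sets of TUBB3, BLVRA, BIN1 and APOL2 have the suffix _x_at, which marks probes that may match other transcripts.

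The threshold fell within a continuous run of values. Just inside it were SFMBT2 and PHF3 (adjusted p = 0.0489 and 0.0489) and just outside RGS18, a regulator of G-protein signalling, at 1.15 ± 0.20 (adjusted p = 0.0508). KDM7A, a histone demethylase, did not pass at 1.74 ± 0.31 (adjusted p = 0.0527), although its PR2VR arrays (2306 to 4095) lay above its GFP arrays (711 to 1058). The Wnt receptor gene FZD4 (-1.22 ± 0.22), the stress factor ATF5 (-1.40 ± 0.25) and GET1, which inserts tail-anchored proteins into membranes (1.12 ± 0.20), did not pass either, each with an adjusted p of 0.052.

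Gene lists set these genes beside related ones. The lists were chosen with earlier results of these data known, so members that passed are no independent support for a pathway. Over all genes tested the median difference was -0.03, 46.9% lay above 0 and 11.1% had an unadjusted p under 0.05 (5.60% higher and 5.47% lower). Of 28 interferon-stimulated genes 26 were tested, 24 of them lay below 0 and the median was -0.60. ISG20 was the 1 member that passed, and 19 members were lower at an unadjusted p under 0.05. ISG15, a ubiquitin-like modifier, read 62778, 138163, 106648 and 98178 on the GFP arrays and 26141, 66119, 65135 and 70613 on the PR2VR arrays, a difference of -0.88 ± 0.17 (adjusted p = 0.0624). The guanylate-binding protein gene GBP1 differed by -1.37 ± 0.31. MX1 (0.32 ± 0.34) and IFIT5 (0.39 ± 0.26) were the 2 members above 0. Of the interferons and their receptors 8 were tested, with a median of -0.74 and 6 below 0. Beside IFNL1, which passed, the receptor genes IFNLR1 (-1.43 ± 0.41) and IFNAR2 (-0.92 ± 0.20) were among these.

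Inflammatory chemokines had the lowest median of the 32 lists, -0.78, with 11 of 12 tested members below 0 and CCL4 the 1 that passed. CCL2, which attracts monocytes, read 3867, 10406, 4415 and 28252 on the GFP arrays and 2429.5, 4959, 2767 and 14082 on the PR2VR arrays and differed by -0.85 ± 0.25 (adjusted p = 0.218). The neutrophil chemokine CXCL8 was the exception above 0, at 0.39 ± 0.20. The 4 sets gave list medians of -1.56, -0.06, -0.66 and -0.68, so the size rested in part on the set 6 h number 1, where the PR2VR array stood apart. Among NF-kB factors, inhibitors and targets 16 of 21 tested lay below 0, the median was -0.46 and 0 passed, with 8 at an unadjusted p under 0.05. The differences were -1.50 ± 0.28 for TRAF1, an adaptor of TNF receptors, -1.14 ± 0.22 for ICAM1, which binds leukocyte integrins, and -0.87 ± 0.18 for NFKBIA, which holds NF-kB in the cytoplasm (adjusted p of 0.0604, 0.0653 and 0.0942). PTGS2, the inducible enzyme of prostaglandin synthesis, stood on the other side at 1.25 ± 0.42. Ligands and receptors of the TNF superfamily had a median of -0.50 with 16 of 19 below 0 and 0 passed, 8 of them lower at an unadjusted p under 0.05. The receptor TNFRSF9 (-1.68 ± 0.32) and the ligand lymphotoxin alpha, LTA (-1.54 ± 0.33), differed the most there.

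Retinoic acid induced genes, among them classical targets of RARA, lay low as a list. Of 15 members 5 were below the filter and 9 of the 10 tested lay below 0, with a median of -0.60. None of these passed in limma, and 4 were lower at an unadjusted p under 0.05. CD38, a surface enzyme that retinoic acid induces in myeloid cells, read 999.6, 2761, 2912 and 2961 on the GFP arrays and 380.1, 1529, 1102 and 1368 on the PR2VR arrays, a difference of -1.13 ± 0.22 (adjusted p = 0.0649). PLAAT4, a phospholipase gene that retinoids induce, differed by -1.09 ± 0.23, and DHRS9, a retinol dehydrogenase, by -1.07 ± 0.27. For DHRS9 the set 6 h number 2 showed nearly no difference (-0.04). CD38, PLAAT4 and DHRS9 had the smallest p of the list. RARB (-0.13 ± 0.33), DHRS3 (0.01 ± 0.29), STRA6 (-0.24 ± 0.25) and CYP26A1 (-0.75 ± 0.39) each had an unadjusted p over 0.05 in limma. Of the retinoid receptors and cofactors 14 were tested and 2 passed, both higher, RARA and TBL1X. The list median was 0.15, and the corepressor scaffold SIN3A differed by 0.93 ± 0.27 (adjusted p = 0.223).

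Genes induced by ATF4, the factor of amino acid shortage, lay high, with 14 of 17 above 0 and a median of 0.50. TRIB3 passed, and 9 members were higher at an unadjusted p under 0.05. ATF4 itself read 48719.8, 59935, 30068 and 26222 on the GFP arrays and 65342, 68479.6, 46863 and 49805 on the PR2VR arrays, a difference of 0.54 ± 0.15, and the cystine transporter gene SLC7A11 differed by 1.22 ± 0.34 (adjusted p = 0.204 and 0.189). DDIT4, a further target, was on the other side at -0.28 ± 0.23. FOXO-responsive genes had a median of 0.49 with 12 of 15 above 0, and IRS2 and TSC22D3 passed. PIK3IP1, an inhibitor of PI3K, differed by 1.07 ± 0.30, and BCL6, a repressor, by 0.91 ± 0.26. Of the 12 MAP kinase feedback inhibitors 10 lay above 0 (median 0.26) and 0 passed, with 4 at an unadjusted p under 0.05. Their list medians in the 4 sets were -0.22, 0.21, 0.39 and 0.63, so the set 6 h number 1 went the other way. DUSP1, a phosphatase that inactivates MAP kinases, read 1294, 1252, 1193 and 1296 on the GFP arrays and 5026, 4333, 2080.5 and 1778 on the PR2VR arrays, a difference of 1.21 ± 0.23 (adjusted p = 0.0624), larger at 6 h (1.82) than at 9 h (0.60; unadjusted p = 0.0234).

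Of 18 ARID5 factors and histone demethylases 14 lay above 0 (median 0.17) and ARID5B passed. Of the list of granule proteases, which includes the elastase gene ELANE, 7 of 8 tested lay below 0 (median -0.26). None of the 8 passed in limma, and 1 had an unadjusted p under 0.05. All 4 tested B cell markers lay below 0 (median -0.41), with 0 passed in limma and 1, PAX5, at an unadjusted p under 0.05. In the list of tryptophan breakdown and aryl hydrocarbon receptor genes IL4I1 and IDO1 passed, the median was -0.30, and the tryptophanyl-tRNA synthetase gene WARS1 differed by -0.95 ± 0.17 (adjusted p = 0.0532). Of 11 SOCS and PIM genes SOCS1 and PIM1 passed and the other 9 did not, with a list median of 0.00. SOCS5 differed by 0.69 ± 0.21. Monocyte and macrophage genes had a median of -0.25 with CD36 higher and AQP9 and MS4A4A lower. Among 9 Kruppel-like factors KLF6 passed, and KLF11 differed by -1.11 ± 0.42. SOX4 was the 1 of 8 progenitor factors that passed, and HHEX, a homeobox factor, differed by 1.04 ± 0.23 (adjusted p = 0.106). Of 10 myeloid transcription factors 0 passed in limma and 4 had an unadjusted p under 0.05. CEBPB, a driver of monocyte differentiation, read 25868, 34105, 35028 and 19184 on the GFP arrays and 12336, 18930.4, 17174 and 10358 on the PR2VR arrays, a difference of -0.96 ± 0.20 (adjusted p = 0.0933). CDKN1A was the 1 of 10 p53 targets that passed, and the list median was -0.15. S phase genes (median -0.13), G2 and mitosis genes (-0.10), heat shock proteins (-0.11) and glycolysis genes (-0.08) had 0 members that passed in limma, and 2, 2, 1 and 1 members had an unadjusted p under 0.05. Their medians in the sets 6 h number 1 and 6 h number 2 had opposite signs. In that order of lists they were 0.23 and -0.50, 0.20 and -0.33, 0.31 and -0.34, and 0.70 and -0.41. Over all genes tested they were 0.13 and -0.06.

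**Figure D3:**
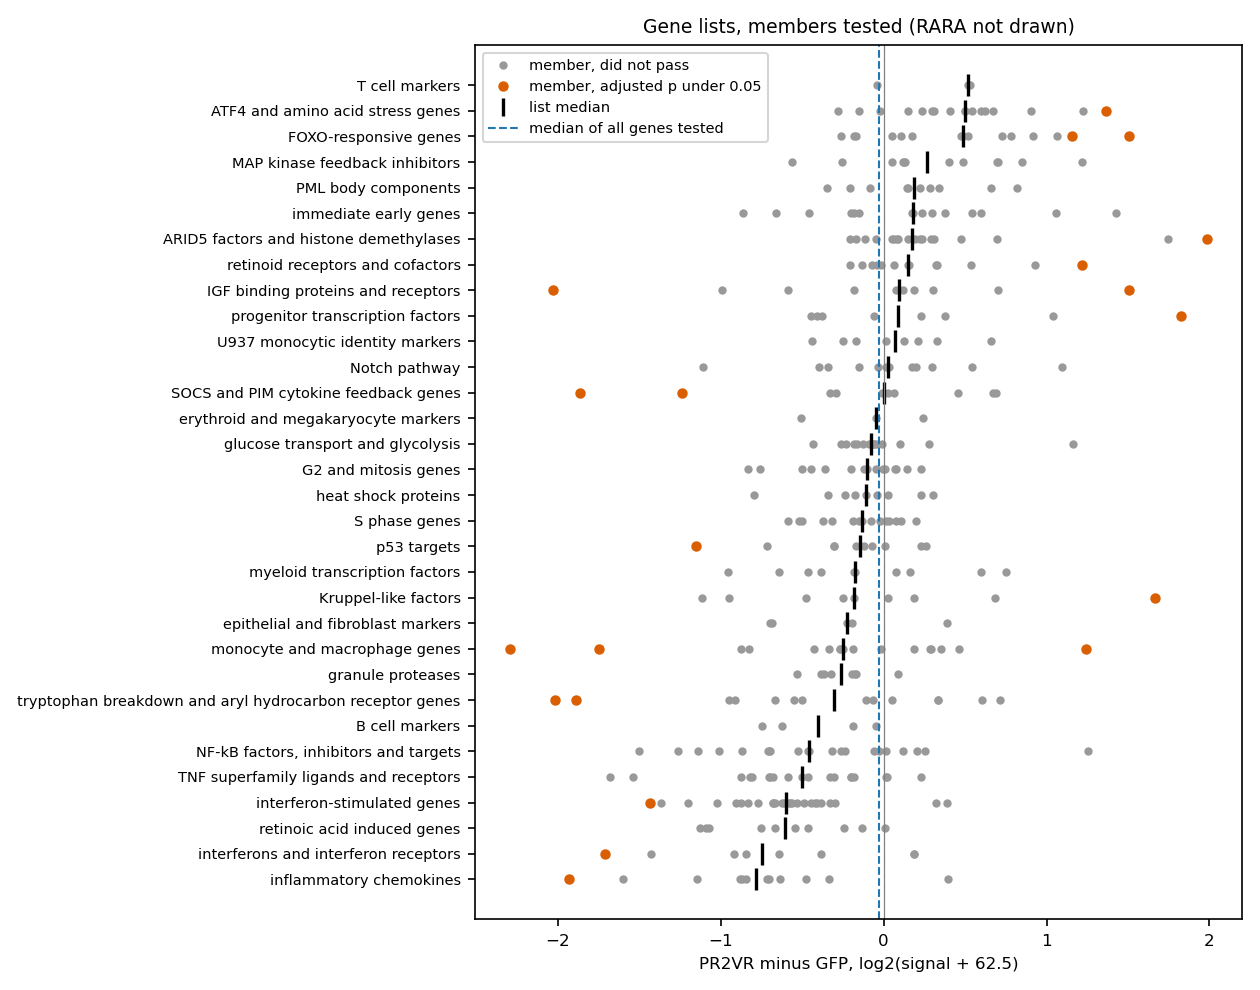
PR2VR minus GFP on the log2(signal + 62.5) scale (horizontal axis) for the tested members of the 32 gene lists, ordered by list median (black tick). Orange points are members with an adjusted p under 0.05, grey points the others, and the dashed line is the median of all genes tested, -0.03. Chemokines (-0.78), interferons and their receptors (-0.74), retinoic acid induced genes (-0.60) and interferon-stimulated genes (-0.60) lie lowest. ATF4 (0.50) and FOXO-responsive genes (0.49) lie near the top, under the 3 T cell markers tested (0.52).

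The medians over the genes that passed were close at both times, while single genes differed between them. At 6 h and at 9 h alone only RARA passed (0.00716% each), with 1207 and 844 genes at an unadjusted p under 0.05. The 21 higher genes had a median difference of 1.45 at 6 h and 1.28 at 9 h, and the 20 lower genes of -1.60 and -1.68. These genes were picked on the mean of both times, which draws the medians together. For the change of the difference from 6 h to 9 h, 0 genes passed in limma, and 398 (2.85%) had an unadjusted p under 0.05. Of the 41 genes 6 were among these, TRIB1, TUBB3, PIM1, ND6, IFNL1 and AQP9. AQP9 was -1.31 at 6 h and -3.28 at 9 h, while TUBB3 was -1.74 and -0.67. Genes outside the 41 gave the smallest p-values. TMPO, a lamina-associated protein gene, read 7749, 8338, 10101 and 13025 on the GFP arrays and 2061, 3274, 8389 and 12530.2 on the PR2VR arrays, which puts the difference at -1.61 at 6 h and -0.16 at 9 h (unadjusted p = 0.00265). ILK, integrin-linked kinase, was likewise -1.51 and -0.08. TRAF1 went the other way, from -0.61 to -2.39, and IFI44L, an interferon-stimulated gene, from 0.68 to -1.27 (unadjusted p = 0.00906 and 0.00249). Their adjusted p was 1.0. Omitting PR2VR 6 h number 2 gave 328 genes.

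The direct contrast of PR2VR with PRWT asked where the resistant form differed from the other fusion. In limma 0 genes passed (0%), 957 (6.86%) had an unadjusted p under 0.05, and the smallest adjusted p was 0.723. RARA differed by -0.40 ± 0.33, with a 95% interval of -1.12 to 0.32. Of the 41 genes 20 had an unadjusted p under 0.05, but they were picked on these same PR2VR arrays, which places them away from PRWT. CCL4 was lower in PR2VR than in PRWT on each pair of arrays, with 4894, 17118, 9131 and 15219 on the PRWT arrays, and differed by -1.22 (95% interval -1.94 to -0.50). PELI2 differed by 0.90 (0.43 to 1.36), MALAT1 by -0.98 (-1.54 to -0.41), TUBB3 by -0.95 (-1.38 to -0.51) and ND6 by -0.88 (-1.28 to -0.47). By contrast the intervals of CDKN1A (-0.26 to 0.52), BIN1 (-0.30 to 0.59), SOCS1 (-0.72 to 0.61), KLF6 (-0.26 to 0.68) and CD36 (-0.62 to 0.29) spanned 0. PRWT and PR2VR share their GFP arrays, and their own differences from GFP stand side by side as follows. The median of the 21 higher genes was 0.87 in PRWT and 1.37 in PR2VR, and that of the 20 lower genes -1.11 and -1.56. Since the genes were picked for PR2VR, these medians favour it. Outside the 41, the early response gene FOSB (1.67) and the methyltransferase gene PRDM2 (1.10) were among the larger differences upward, and the signal recognition particle gene SRP14 (-0.92) downward, with an adjusted p of 0.723 each. Omitting PR2VR 6 h number 1 gave 18 genes, and omitting number 2 gave 303.

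**Figure D4:**
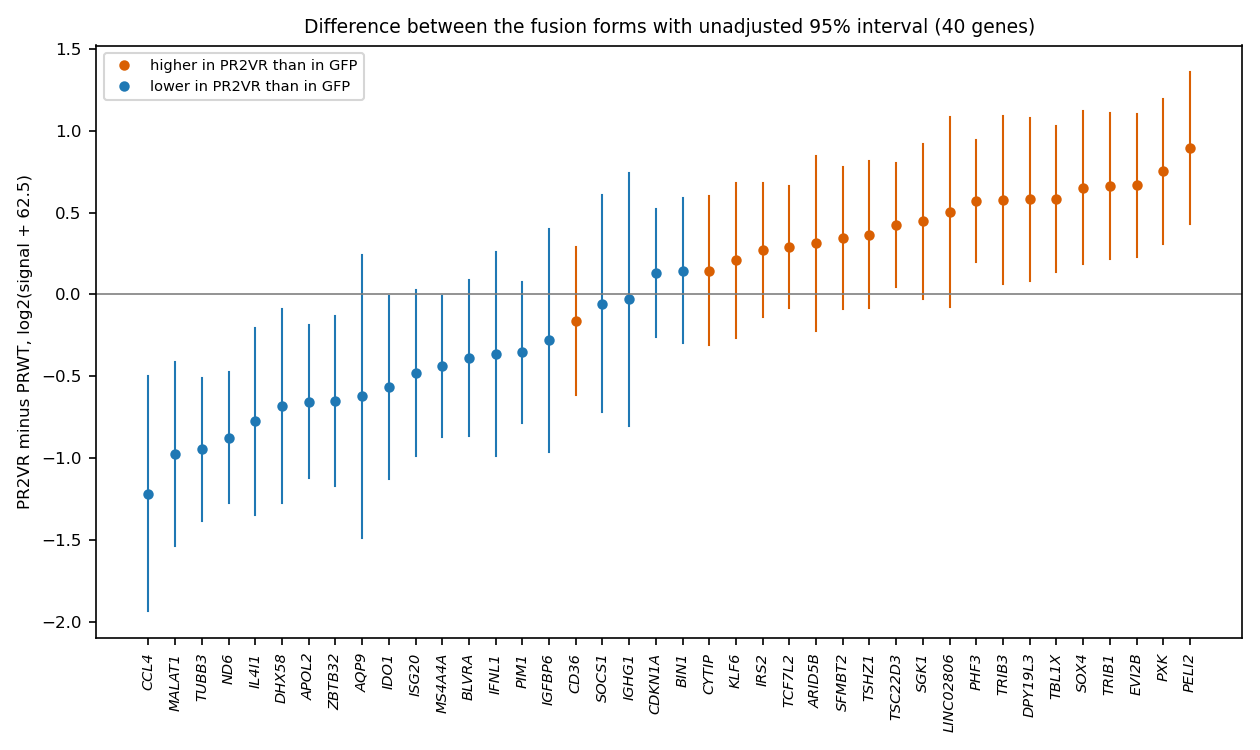
PR2VR minus PRWT on the log2(signal + 62.5) scale (vertical axis) for the 40 genes other than RARA, with unadjusted 95% intervals as bars. Genes higher in PR2VR than in GFP are orange and genes lower are blue. Points run from -1.22 (CCL4) to 0.90 (PELI2), and the intervals of CDKN1A, BIN1, SOCS1 and CD36 cross 0.

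Probe sets that were not used for a gene give a second reading of the same arrays. The 21 higher genes had 36 other probe sets at or above the filter on signal, of which 31 differed upward, and 14 below it, of which 7 did. For the 20 lower genes 19 of 24 other probe sets at or above the filter and 4 of 7 below it differed downward. At or above the filter, those in the opposite direction belonged to PHF3, PXK, RARA, TBL1X, TRIB3, APOL2, MALAT1 and SOCS1, and 0 of them had an unadjusted p under 0.05 in limma. In the direction of the gene 17 and 13 had one. With all probe sets at or above the filter fitted, 3352 of 32768 had an unadjusted p under 0.05 in either direction. Of all genes tested 46.9% lay above 0. The counts for higher genes include other probe sets of RARA, among them the second one given above (3.12). Below the filter, 2 other probe sets of higher genes had one in the opposite direction, of ARID5B (-0.72) and SOX4 (-0.90), and 1 in the direction of the gene. Lower genes had 0 and 1. ARID5B had 4 other probe sets with differences of -0.72 to 0.19, and SOX4 5 with -0.90 to 1.94, 3 of them upward. With the mean of all probe sets of a gene in place of the brightest, 14 genes passed, 5 higher and 9 lower, and 12 of the 41 were among them.

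**Figure D5:**
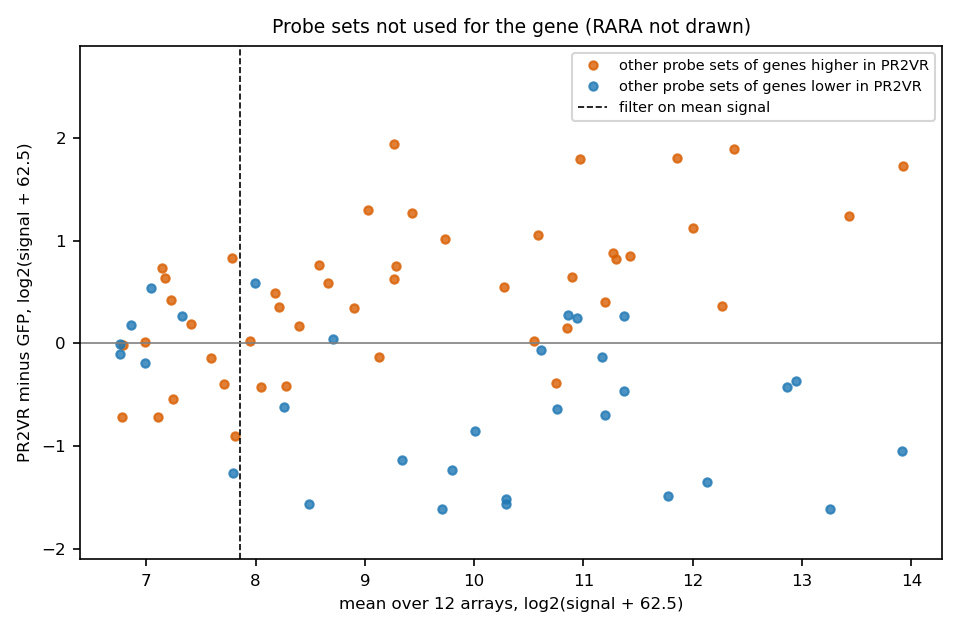
Each point is a probe set that was not used for its gene, for the 40 genes other than RARA that passed. The horizontal axis is its mean over the 12 arrays and the vertical axis its PR2VR minus GFP difference, both on the log2(signal + 62.5) scale, with the filter of 7.85 as a dashed line. To the right of the line most orange points (genes higher in PR2VR) lie above 0 and most blue points (genes lower) below it, while the points left of the line scatter around 0.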

How the data were processed

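The deposited intensity of each probe set is the MAS5 signal, per the submitters' processing notes, on a linear scale, already scaled by the authors. The MAS5 version, detection calls and genome build are not given in the sources used here. RNA had been extracted with Trizol and labelled as biotinylated cRNA, per the labels' protocols. Of 54613 probe sets that are no controls, 41091 have 1 gene symbol in the platform annotation, 1801 several and 11721 none. Genes took the probe set with the highest mean, which left 19775. Values were set to log2(signal + 62.5), the offset being the 20th percentile, which understates changes of dim genes. The 13959 genes with a mean of at least 7.85 on this log2 scale (the 40th percentile of probe sets) were tested. The number of arrays limits the precision.

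limma 3.58.1 in R 4.3.3 was fitted to all 12 arrays with the set as a block, construct effects at each time, and a variance trend (4 residual degrees of freedom). The members, the paired fit and the gene lists were chosen with earlier results of these data known, including that the paired fit calls more genes. Replicate numbers come from the titles. Deviations of same-numbered GFP and PR2VR arrays from their group means correlated at r = 0.15 at 6 h and 0.63 at 9 h. Numbers across times gave -0.02 to 0.19, a range that holds the 6 h value. Pairing of GFP with PR2VR is therefore not shown at 6 h. Named genes are all that passed, the 3 members of each list with the smallest p, the 5 with the smallest p in either direction at each time, for the change with time and against PRWT, the 5 on either side of the threshold, and RARA and PML. SPI1, CXCL8, IFIT5, IFNLR1, MX1, PTGS2, DDIT4, BCL6, RARB, DHRS3, STRA6 and CYP26A1 were named after their values were seen. Fits were tested on simulated data.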

Additional observations from a re-analysis of the deposited data

How the results depend on the processing

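For PR2VR against GFP the count of 41 genes was 33 to 57 with other offsets, other filters, quantile normalization and all probe sets. It was 1 without the replicate block (unpaired), 1 with only the 8 PR2VR and GFP arrays, 1 with no variance trend, 14 with the mean of all probe sets and 86 with no construct by time term. Leaving out 1 array gave 1 to 739 and leaving out 1 set 1 to 792. At 6 h and at 9 h the 1 gene became 0 and 0 with the mean of all probe sets, 4 and 2 with all probe sets, and 1 to 892 and 0 to 23 when arrays or sets were left out. The change with time gave 0 to 353 and PR2VR against PRWT 0 to 319 in those omissions. All 41 genes kept their direction under every setting in which they were tested, which their agreement over 4 sets largely fixes. Without the block their median SE went from 0.21 to 0.39 with the differences the same. With the mean of all probe sets ENY2 turned to 0.15 and LPAR2 to -0.063 against GFP. Using only the 8 arrays, or no trend, left the median size of the 41 differences at 1.51 and took their median SE from 0.21 to 0.23, and with 8 arrays 2 residual degrees of freedom were left of 4. For the other changes the cause was not tested. A signal near 37.7, the median of bacterial controls, limits what can be read of dim genes.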
